A study of Rattus norvegicus with 3 samples.

Results

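DEAD and DEAH box RNA helicases were measured in rat iPS F65 cells, an induced pluripotent stem (iPS) cell line, and in adult rat cells. The members are all gene probes whose array name starts with Ddx or Dhx followed by a digit, apart from 1 gene that is not reported here. They number 39 genes of 35561 on the array and 56 probes of 41012. Untreated iPS F65 cells, grown on a feeder layer of irradiated mouse embryonic fibroblasts, gave 3 samples, each labelled with Cy3. The control, named mix1, was a mixture of cultured adult bone marrow cells and ear fibroblasts, labelled with Cy5 and present on each of the 3 arrays. The comparison asks which genes differ in level between a pluripotent line and adult cells. The data stand for 1 iPS line and 1 control mixture, and RNA of the mouse feeder cells may be in the iPS samples.

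The helicases of this family use ATP to unwind short RNA duplexes or to strip proteins from RNA, and they carry the letters of their name as amino acids in the Walker B motif of the ATPase core. DEAD box members mostly open local duplexes during ribosome assembly, translation and messenger RNA export, whereas many DEAH box members move along RNA and drive the steps of the splicing cycle. Pluripotent cells grow and divide fast and are known for a high output of ribosomes.

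The sequences below are 60-base array probes, chosen because they carry the family's signature or belong to members on which the results turn. Each of those shown has at least 1 reading frame without a stop codon, and the positions are those of the array file in rat build rn3. The first 2 hold the codons for aspartate, glutamate, alanine and aspartate, the DEAD box itself, in capitals.
Ddx20, chr2:200897481-200897540, minus strand: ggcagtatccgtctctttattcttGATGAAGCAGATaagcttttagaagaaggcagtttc
Ddx3x, chrX:21553378-21553852, minus strand: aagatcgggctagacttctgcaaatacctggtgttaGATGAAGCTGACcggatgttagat
Ddx21a, chr20:29862916-29862975, minus strand: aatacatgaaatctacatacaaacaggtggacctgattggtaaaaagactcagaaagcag
Ddx50, chr20:29887053-29887112, minus strand: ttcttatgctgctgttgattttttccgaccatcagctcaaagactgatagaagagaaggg
Dhx35, chr3:149489808-149489867, plus strand: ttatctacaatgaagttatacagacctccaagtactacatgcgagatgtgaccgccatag
Dhx37, chr12:32170327-32170482, plus strand: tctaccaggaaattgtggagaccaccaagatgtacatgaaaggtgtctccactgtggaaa
The Ddx3x probe covers a stretch of 475 bases and the Dhx37 probe 156 bases, both longer than the probe. Codons for DEAD, in any reading frame and on the probe's strand, stood in 2 of the 56 helicase probes and in 7 of all 41012 probes (0.0171%). Codons for DEAH stood in 0 of the 56 and in 2 of all probes (0.00488%). The Ddx20 probe read log2 ratios of iPS F65 over mix1 of 2.65, 2.85 and 2.78 on the arrays of replicates 1, 2 and 3, and the Ddx3x probe read 1.27, 1.33 and 1.28. After loess their means were 1.76 and 0.78. Each is the dimmest probe of its gene, and the brightest probes, which stand for these genes below, read 1.86 and 0.74, the latter not called.

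Values are log2 ratios of the scanner software's processed signals, iPS F65 over mix1, so that 1 stands for a 2-fold higher signal in the iPS cells. A gene was called higher or lower at a Benjamini-Hochberg adjusted p under 0.05 in limma's fit over all genes and a difference of at least 2-fold. Where a gene had several probes, the brightest stands for it. Since mix1 is 1 control sample, its own spread is left out, and no label says that separate cultures gave the 3 iPS samples. A p-value here covers only the spread of these samples, which may be technical. Dye, slide and scan were the same for all arrays, so their effects and the difference between the cells cannot be told apart. In such bulk samples, fewer cells of a type and less RNA per cell cannot be told apart either.

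Of 43379 gene spots on an array, 57.1% to 61.2% passed the software's test for well above background in Cy3 and 58.3% to 62.1% in Cy5. Their number, 3 arrays, limits the precision of every value. The iPS cells matched their label in most markers: 5 of 6 measured pluripotency markers were higher, among them Nr0b1 at 4.87 and Dnmt3b at 4.22. Pou5f1 and Dppa3, also higher, were well above background in iPS F65 alone. Lin28 at -0.02 was neither, and Fgf4 was on the array but not among the tested genes. All 10 fibroblast markers were lower, with a median of -7.89 and summed signals of 6848 to 9353 in iPS F65 against 1505553 to 1923671 in mix1. Of 9 myeloid markers 8 were lower, with a median of -6.30. The fibroblast markers Thy1 and Postn and the myeloid markers Itgam and Aif1 were well above background in mix1 alone. All 7 measured proliferation markers were higher, with a median of 1.75, and their summed signals were 237564 to 277376 in iPS F65 against 62688 to 72937 in mix1. Proliferation thus moved with the helicases described next, and its part in their values was not tested.

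Most of the helicases were more abundant in the iPS cells, and none was called lower. The filter kept the 38 helicases that were well above background on every array in at least 1 colour. Of these 21 were higher, while 30.9% of all 21805 tested genes were. None of the 38 was lower, against 24.5% of all tested genes (limma). At an unadjusted p under 0.05, 36 helicases had a ratio above 0 (94.7%, against 54.4% of all tested genes) and 2, Ddx24 and Ddx50, a ratio below 0 (5.26%, against 41.2%). Dhx33 and Dhx37 passed the filter through iPS F65 alone, where they are the higher. With only probes that passed in both colours, 19 of 36 helicases were higher and 0 lower (limma), against 28.9% and 18.7% of 17257 genes. The median helicase stood at 1.33, and the median of all tested genes at 0.25. The 38 means ran from -0.21 for Ddx50 to 2.70 for Dhx16.

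With normexp background correction and loess in place of the processed signals, the median of all genes was -0.08 and that of the helicases 0.95. The difference between both medians was 1.08 with the processed signals and 1.03 with loess. After loess 18 helicases were higher and 0 lower, against 18.3% and 26.1% of all genes. A ratio above 0 was found for 33 of the 38, and for 10389 of all 21805 tested genes. Over all genes, 6731 were higher and 5340 lower with the processed signals, and 3980 and 5696 after loess. The ratios were close between arrays, with a standard deviation (SD) over the 3 arrays of 0.0033 to 0.39 and a median SD of 0.025 over the helicases.

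**Figure D1:**
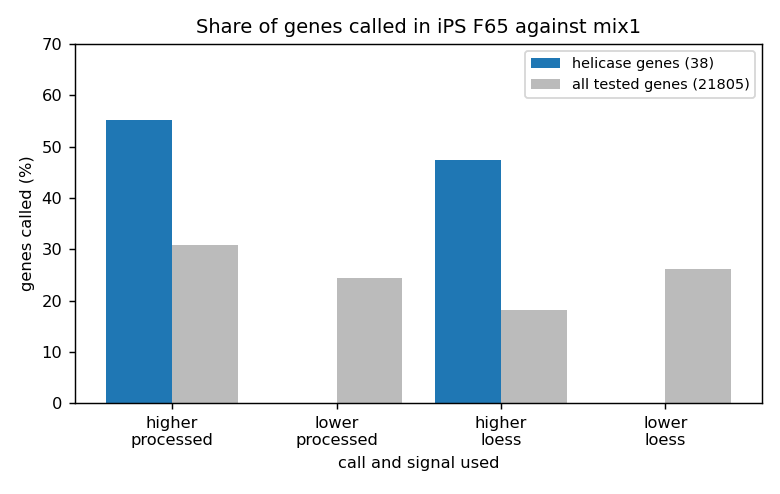
Share of genes called higher or lower in iPS F65 (percent, vertical axis) for the 38 helicases (blue) and all 21805 tested genes (grey), with the processed signals and after loess. The helicase bars for higher stand above the grey ones in both settings, and both helicase bars for lower are at 0.

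**Figure D2:**
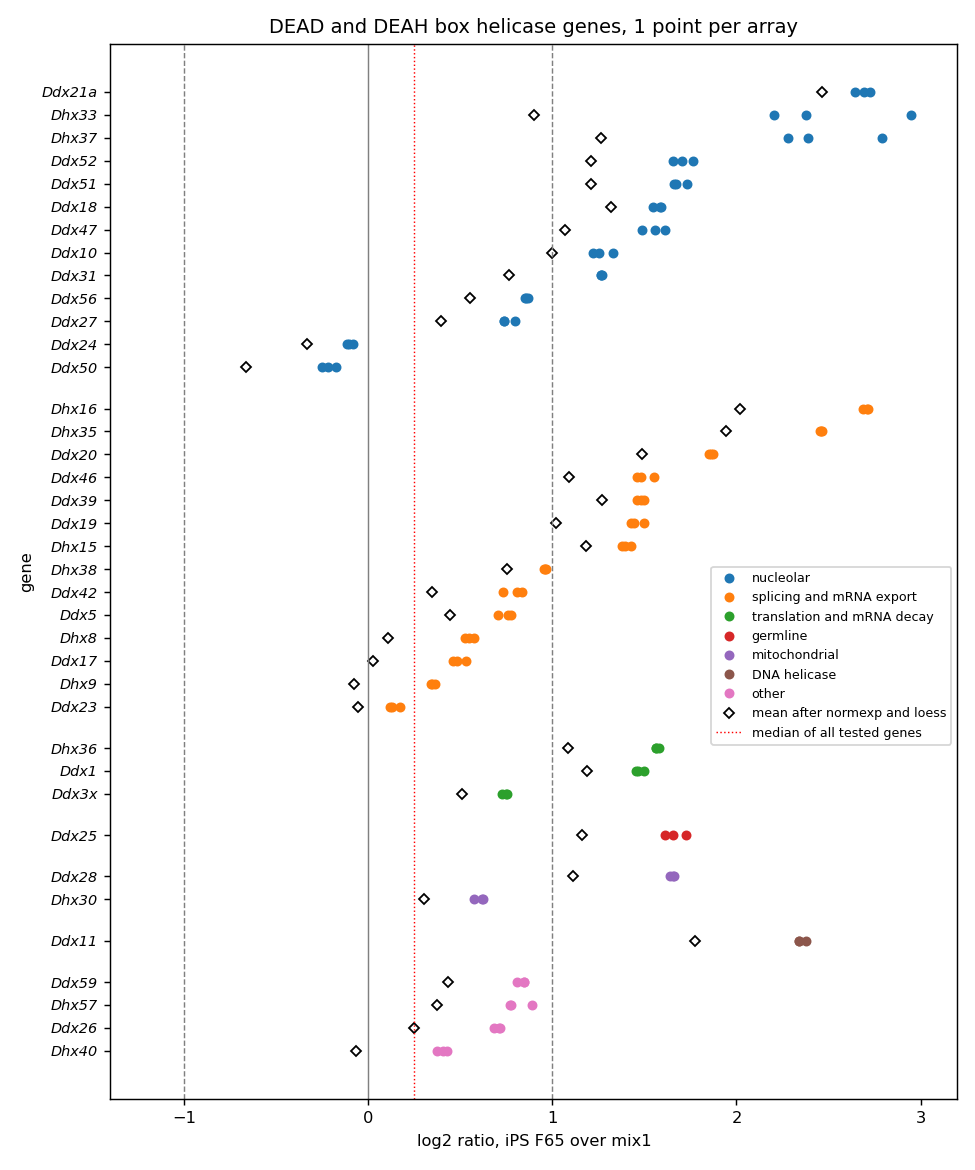
Log2 ratio of iPS F65 over mix1 (horizontal axis) of each of the 38 measured helicases, 1 filled point per array, coloured by role, with the mean after normexp and loess as an open diamond. Solid and dashed lines mark 0 and a 2-fold difference, and the dotted line the median of all tested genes at 0.25. Points of 1 gene lie close together except for Dhx33 and Dhx37, and the diamonds lie to the left of the points throughout.

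Nucleolar helicases remodel the precursor of ribosomal RNA and release the small nucleolar RNAs that guide its processing. Of the 13 measured, 9 were higher with the processed signals and 6 after loess, with medians of 1.55 and 1.00. Of all tested genes 30.9% and 18.3% were higher. Dhx33 and Dhx37, among the 9, passed the filter through iPS F65 alone. Ddx21a, named Ddx21 in RefSeq and known to couple transcription and processing of ribosomal RNA, read 2.69, 2.72 and 2.64 on the 3 arrays. Its mean of 2.69 ± 0.04 (SD, n = 3) was a 6.44-fold difference (limma adjusted p = 7.14e-06), and loess gave 2.47. RefSeq lists 9 pseudogenes of Ddx21, so part of its signal may come from near-identical copies.

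The other called nucleolar helicases were Dhx33, Dhx37, Ddx52, Ddx51, Ddx18, Ddx47, Ddx10 and Ddx31. Ddx18, which acts in both subunits' assembly, read 1.55, 1.59 and 1.59, a 2.98-fold difference, and 1.32 after loess. Ddx52, a factor of the small subunit, read 1.77, 1.70 and 1.65, and Ddx51, a factor of the large subunit, 1.73, 1.67 and 1.66. Both gave 1.21 after loess. Ddx47, another small subunit factor, read 1.49, 1.56 and 1.61, and 1.07 after loess. These 4 genes kept their call under each of the alternatives run.

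The remaining 4 of the called nucleolar genes depended on the processing. Dhx33, known for a role in transcription of the ribosomal genes, was dim, with signals of 92.0, 116 and 116 in iPS F65 and 17.7, 15.0 and 25.1 in mix1. It was not well above background in mix1 on any array. Its ratios of 2.38, 2.95 and 2.20 scattered more than those of any other helicase, and as a bound, on the scale of the processed signals, it was at least 1.60-fold higher. As mix1 was not above background, its measured means are not exact. The mean ratio was 2.51 with the processed signals (limma adjusted p = 0.00074), 0.90 after loess and 0.32 with normexp on the backgrounds as given (adjusted p = 0.28), so the call was lost in both and the bound does not hold in the latter.

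Dhx37, which frees the U3 small nucleolar RNA from the small subunit precursor, was likewise not well above background in mix1 on any array. It read 2.79, 2.39 and 2.28 and was at least 4.13-fold higher as a bound on the scale of the processed signals. That bound does not hold after loess, which gave 1.26 or 2.40-fold, still called, and normexp on the backgrounds as given 0.51 (limma adjusted p = 0.25), not called. Ddx10, a small subunit factor, had a mean of 1.27 and fell just short of 2-fold after loess, at 1.00. Ddx31, a large subunit factor, also had a mean of 1.27, and its call was lost at 0.76 after loess and at 0.56 with the backgrounds as given.

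The other 4 nucleolar helicases were not called. Ddx56 stood at 0.86 and Ddx27 at 0.76, both factors of the large subunit. Ddx24, also of the large subunit, read -0.10, -0.08 and -0.11.

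Ddx50, a close paralog of Ddx21 that also lies in the nucleolus, read -0.17, -0.22 and -0.25. Its mean of -0.21 ± 0.04 (SD, n = 3) was the lowest of the 38 and was not called with the processed signals or after loess, which gave -0.66. The gap between Ddx21a and Ddx50 within an array was 2.87, 2.94 and 2.89, with a mean of 2.90 ± 0.04 (SD, n = 3), and 3.13 after loess. Both genes are neighbours on chromosome 20, with 0 protein-coding genes between them in RefSeq's assembly GRCr8. The 2 probes printed above therefore come from 1 short stretch of the genome and read opposite signs, with 3.31, 3.30 and 3.33 for that Ddx21a probe. It is the dimmest Ddx21a probe, with mix1 signals of 88.0 to 106, and its mean was 2.27 after loess. With 3 arrays an exact two-sided sign test of such a gap can give no p below 0.25, so the gap is described by its spread alone.

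The promoters of this pair are shown because the 2 genes lie side by side and read opposite signs. They are the 250 bases before each gene's start in RefSeq's GRCr8, with the letters CCGGAAGT, a core bound by ETS-family factors, in capitals.
Ddx21 promoter, chr20:31097239-31097488, minus strand: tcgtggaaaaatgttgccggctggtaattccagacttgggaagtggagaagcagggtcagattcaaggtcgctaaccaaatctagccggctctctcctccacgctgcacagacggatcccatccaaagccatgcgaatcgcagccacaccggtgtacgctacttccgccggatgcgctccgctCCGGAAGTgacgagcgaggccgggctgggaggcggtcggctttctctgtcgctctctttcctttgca
Ddx50 promoter, chr20:31133653-31133902, minus strand: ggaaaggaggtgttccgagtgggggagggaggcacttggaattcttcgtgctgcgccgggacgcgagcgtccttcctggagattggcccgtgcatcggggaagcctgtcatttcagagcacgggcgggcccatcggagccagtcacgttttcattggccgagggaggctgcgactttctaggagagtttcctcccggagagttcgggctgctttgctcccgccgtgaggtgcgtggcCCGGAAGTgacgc
Both hold the same 8 letters, and their content of G and C was 58.8% and 63.6%. In windows of 250 bases before to 50 after the start, promoters were matched for 36 of the 38 helicases, and 7 motifs were searched on both strands. CCGGAAGT stood in 7 of the 36 (19.4%) and in 4.01% of 27457 RefSeq promoters, CACGTG in 6 (16.7%, against 6.65%), GATTGG in 10 (27.8%, against 15.3%) and TTTGGCGC in 1 (2.78%, against 0.521%). The longer NRF1 motif stood in 5 (13.9%, against 2.88%), the YY1 motif in 2 (5.56%, against 1.20%) and the KAISO motif in 0 (against 0.433%). By call, CCGGAAGT stood in 3 of the 20 higher and 4 of the 16 uncalled helicases, and CACGTG in 5 and 1. For GATTGG these counts were 4 and 6, for NRF1 3 and 2, for YY1 2 and 0 and for TTTGGCGC 0 and 1. The RefSeq promoters used for comparison are not limited to tested genes. A match of letters is a description and no sign of a bound factor.

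Partners of the nucleolar helicases in ribosomal RNA processing moved in the same direction. Of 18 measured genes, 16 were higher and 0 lower with the processed signals (limma, against 30.9% and 24.5% of all genes), and 15 were higher after loess. Their median was 1.55, and the gene with the largest ratio was Wdr3, a small subunit processome protein, at 2.64.

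Splicing and export helicases were split. Of 14 measured, 7 were higher in both settings, against 30.9% of all genes with the processed signals and 18.3% after loess. Their median was 1.18 with the processed signals and 0.89 after loess. The DEAH box members of the splicing cycle spanned most of this range. Dhx16, which activates the spliceosome before the first step, read 2.69, 2.71 and 2.71, a mean of 2.70 ± 0.01 (SD, n = 3) and a 6.51-fold difference (limma adjusted p = 5.62e-06), with 2.02 after loess. Dhx35, a protein found in the catalytic spliceosome, read 2.46, 2.46 and 2.45 by its brightest probe, with 1.94 after loess. The Dhx35 probe printed above is the dimmer one and read 1.84, 1.88 and 1.81, with 1.20 after loess.

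Dhx15, which takes spent spliceosomes apart, read 1.38, 1.43 and 1.39, with 1.18 after loess. Dhx38, which acts before the second step, stood at 0.96 and was not called, and Dhx8, which releases the spliced messenger RNA, stood at 0.55 and 0.11 after loess. Within arrays Dhx16 exceeded Dhx38 by 1.74 ± 0.02 and Dhx8 by 2.15 ± 0.03 (SD, n = 3), and after loess by 1.26 and 1.91. In these 2 settings both gaps were larger than the spread between arrays. With normexp on the backgrounds as given they were smaller, with Dhx16 at 1.34, Dhx38 at 0.99 and Dhx8 at 0.25. Each of these genes was read by 1 probe, so the spread between arrays leaves out differences between probes.

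Among DEAD box members of the spliceosome, Ddx46, which acts on the branch site, read 1.48, 1.55 and 1.46. Ddx42, bound to the U2 particle, stood at 0.79, and Ddx23, which removes the U1 particle from the start of the intron, at 0.14. Neither of these was called, and the mean of Ddx23 turned to -0.06 after loess and to -0.11 with array medians set to 0. The other, dimmer Ddx23 probe stood at 0.93, with 0.42 after loess. With the mean of its probes Ddx23 stood at 0.53, not called. Ddx20, a subunit of the SMN complex that builds spliceosomal particles, was higher at 1.85, 1.86 and 1.87, a 3.64-fold difference.

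The export helicases Ddx39 (Ddx39a in RefSeq) and Ddx19 (Ddx19a in RefSeq), which load export factors onto messenger RNA and release it at the nuclear pore, were both higher. Ddx39 read 1.48, 1.50 and 1.46 and Ddx19 read 1.44, 1.50 and 1.43, and loess gave 1.27 and 1.02. Ddx5 and its paralog Ddx17, which also take part in microRNA processing and transcription, were not called. Ddx5 read 0.78, 0.76 and 0.71 and Ddx17 0.48, 0.53 and 0.46, a gap of 0.25 ± 0.04 (SD, n = 3) that was 0.42 after loess. Dhx9, known as RNA helicase A, stood at 0.35 and turned to -0.08 after loess.

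Of 19 spliceosome proteins measured, 5 were higher and 0 lower (4 higher after loess), and their median was 0.77. These shares of 26.3% and 21.1% higher are near those of all genes, 30.9% and 18.3%. The list was led by Cdc40 at 1.99, a second-step factor. All 3 measured partners of Ddx20 in the SMN complex were higher, led by Smn1 at 1.98, and 2 of them after loess. Of 11 exon junction and export genes 6 were higher and 0 lower (54.5%, and 36.4% after loess), led by Thoc1 at 1.89, a subunit of the THO export complex. Of 8 proteins with a G-patch, the motif that activates DEAH box helicases, 4 were higher and 0 lower in both settings, led by Aggf1 at 1.62.

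**Figure D3:**
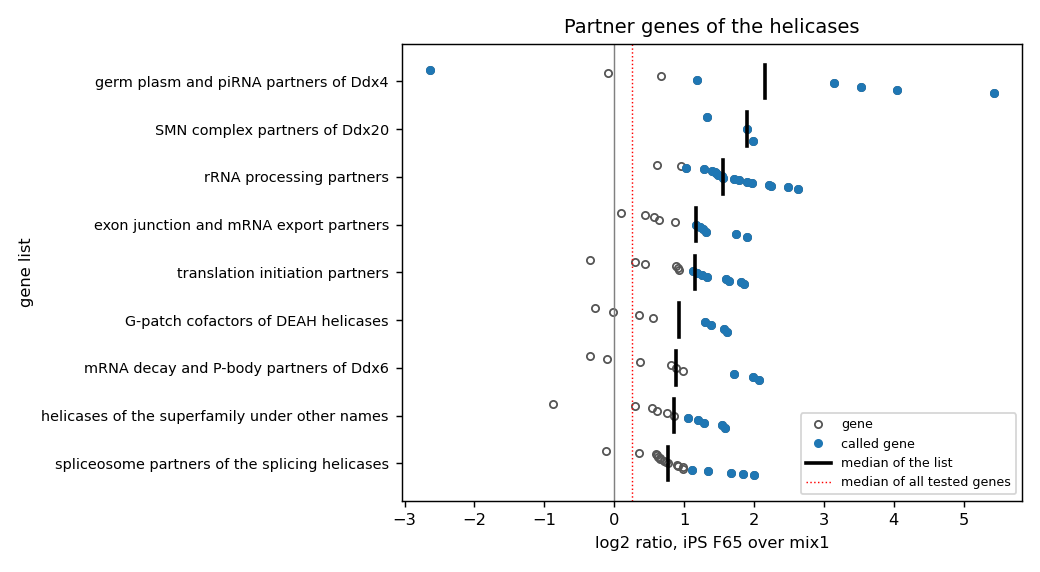
Log2 ratio of iPS F65 over mix1 (horizontal axis) of the measured genes in each of 9 lists, of partners or of helicases under other names. Called genes are filled, other genes open, and the median of a list is a bar. The bar for ribosomal RNA processing lies at 1.55 and that for the spliceosome at 0.77, both right of the dotted median of all genes. Tdrd7, at the far left among the germ plasm genes, was the only gene called lower.

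Helicases of translation and decay numbered 3, of which 2 were higher in both settings (30.9% and 18.3% of all genes were). Dhx36, which unwinds G-quadruplexes in messenger RNA, read 1.56, 1.56 and 1.58, and Ddx1, a subunit of the transfer RNA ligase complex, 1.46, 1.46 and 1.50. Loess gave 1.09 and 1.19. The dimmer Ddx1 probes stood at 1.61 and 0.92, the latter below 2-fold, and at 1.22 and 0.47 after loess. With the mean of its probes Ddx1 stood at 1.33 and was called. Ddx3x, which helps ribosomes to scan structured leaders, was bright in both channels and read 0.72, 0.75 and 0.75, below 2-fold. With the mean of its probes it stood at 1.02 and was called.

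Of 14 measured translation initiation factors, 8 were higher (57.1%, against 30.9% of all genes) and 0 lower (limma, against 24.5%). After loess 5 were higher (35.7%, against 18.3%). The list was led by Eif4ebp2 at 1.86, a repressor of cap-dependent initiation. Of 9 genes of messenger RNA decay, 3 were higher and 0 lower in both settings. This share of 33.3% is near the 30.9% of all genes with the processed signals, and stands against 18.3% after loess. The gene with the largest ratio was Dcp2 at 2.08, the decapping enzyme. Of 11 helicases of the superfamily that carry other names, 5 were higher (45.5%) and 0 lower. After loess 2 were higher (18.2%, against 18.3% of all genes) and 1, Skiv2l, was lower. Supv3l1, a mitochondrial RNA helicase, had the largest ratio of these at 1.58. Over all 9 lists, these helicases included, 92 of 101 genes had a ratio above 0 at an unadjusted p under 0.05 (limma). For 7 it was below 0 at the same threshold. Among the 101 are 3 germ plasm genes that passed the filter through iPS F65 alone, so these counts are given with no comparison.

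The germline helicases differed in whether they were measured. Ddx25, a testis helicase needed for spermatid development, read 1.65, 1.73 and 1.61, a mean of 1.66 ± 0.06 (SD, n = 3) and a 3.17-fold difference (limma adjusted p = 2.09e-05). Loess gave 1.16, and its signals of 4483 to 5014 in iPS F65 and 1424 to 1589 in mix1 were above background in both. Ddx4, the germ cell helicase also known as Vasa, was the only one of the 39 not well above background in either channel. Its signals were 14.9, 13.5 and 13.1 in iPS F65 and between 13.7 and 14.8 in mix1, so no fold is given.

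Of 8 measured germ plasm and piRNA genes, 5 were higher and 1, Tdrd7, lower at -2.64 (4 and 1 after loess), but 3 of the 8 passed the filter through iPS F65 alone, so the count is given with no comparison. Tdrd5, a Tudor domain protein of the male germline, was 1 of these 3 and was at least 11.2-fold higher as a bound on the scale of the processed signals. That bound does not hold after loess, which gave a log2 ratio of 2.83.

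Both mitochondrial helicases act in assembly of the mitochondrial ribosome. Ddx28 read 1.66, 1.64 and 1.66 and was higher, and Dhx30 stood at 0.61 and was not called. Ddx28 gave 1.11 after loess and lost its call at 0.96 with normexp on the backgrounds as given. Ddx11, a DNA helicase of sister chromatid cohesion that shares the family name, read 2.38, 2.34 and 2.34, a 5.11-fold difference, and 1.78 after loess. It moved with the 7 proliferation markers, which were all higher, and their part in its value was not tested.

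The remaining 4 members, Ddx59, Dhx57, Ddx26 and Dhx40, were not called and stood between 0.40 and 0.83. Ddx26 is named Ints6 in RefSeq, a subunit of the Integrator complex, and is counted among the helicases here by its array name. Dhx40 turned to -0.07 after loess, and Dhx57 was called at 1.09 with the mean of its probes. By name, 15 of 26 measured Ddx genes and 6 of 12 Dhx genes were higher (against 30.9% of all genes), with medians of 1.36 and 1.18. After loess 13 Ddx genes and 5 Dhx genes were higher (against 18.3%), with medians of 1.01 and 0.83. Dhx33 and Dhx37, among the 6 Dhx genes called with the processed signals, passed the filter through iPS F65 alone.

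Several genes were read by more than 1 probe. For 14 genes with at least 2 tested probes, the gap between the highest and the lowest probe ran from 0.083 for Ddx11 to 1.75 for Ddx21a, with a median of 0.65. The 3 probes of Ddx21a gave 1.56, 2.69 and 3.31, all above 2-fold. Those of Ddx10 gave 1.27 and 2.56.

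Probes of 2 genes had opposite signs. Ddx17 was at 0.49 by its brightest probe and at -0.43 by the other, and Ddx26 at 0.70 and -0.09. The dimmest probe gave a larger ratio than the brightest in 9 of the 14 genes with the processed signals, with a median difference of 0.46. After loess it did so in 7 of 14, with a median difference of 0.00. The level given for a gene with several probes thus depends on the probe, and whether probes read different transcripts was not tested.

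**Figure D4:**
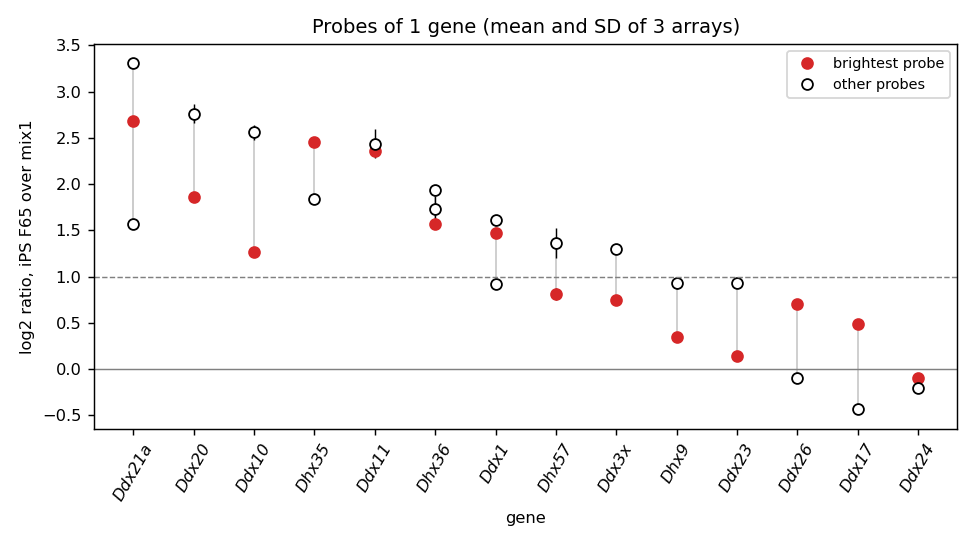
Log2 ratio of iPS F65 over mix1 (vertical axis, processed signals) of every tested probe of the 14 helicases with more than 1, as means with the SD of 3 arrays, the brightest probe filled. Ddx21a shows the widest gap, from 1.56 to 3.31, and Ddx17 and Ddx26 have probes on both sides of 0.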

How the data were processed

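Rat iPS F65 RNA (Cy3, 3 samples) was hybridised against mix1 (Cy5) on 3 two-colour arrays of 1 slide, per the labels and the file headers. The deposited intensity values come from Agilent Feature Extraction 9.5.3.1, per the file headers, and its processed signals were background-subtracted and dye-normalized by the authors' scanner software. The authors' series matrix holds log2 values that equal the log2 ratios of these processed signals within 3.1e-06 for 41012 probes, iPS F65 over mix1. Array medians of the matrix were 0.00, -0.01 and -0.06.

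Control and outlier-flagged spots (204 to 213 per array) were left out; no spot was saturated. Spots of a probe were averaged, and 25801 probes (21805 genes) passed the filter of being well above background on every array in 1 channel. The mean log2 ratio was tested against 0 in R 4.3.3 with lmFit and eBayes of limma 3.58.1, with Benjamini-Hochberg adjustment over all of them. This main analysis uses the processed signals on which the members are defined. Scripts were tested on simulated data. Normexp used an offset of 50, with flagged backgrounds (681 to 789 spots per array) replaced by the array median, or as given. Bounds were taken from the processed signals, which the scanner software had normalized within arrays, after Aquantile normalization between arrays, with the bright channel's mean set against a floor in the dim channel. On each array that floor was the probe's own level or, if higher, the lowest level well above background, and floors were averaged. Such bounds are open to dye bias without a dye swap. Other alternatives were array medians set to 0, probes above background in both channels, no filter, the mean of a gene's probes, the matrix values, and leaving out each replicate.

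Gene names are those of the array, without the endings for predicted or mapped genes; 14 of the 39 helicases were provisional, and current names are from RefSeq. Any helicase of the rule could be named, and of each partner list the called gene with the highest and with the lowest ratio, beside fixed cell type markers. Members, lists and roles were chosen with earlier results of these data known. Positions are in rn3, per the file headers, except promoters (RefSeq, GRCr8). One further gene of the family is not reported here.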

Additional observations from a re-analysis of the deposited data

How the results depend on the processing

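No paired analysis was possible because the labels give 1 group, so no second group shares its replicate numbers; each ratio already sets both channels of 1 array against each other. Of the helicases, 21 were called higher with the processed signals, 18 after loess with flagged backgrounds replaced, 17 with the backgrounds as given, 19 of 36 with probes above background in both channels, 23 with the mean of a gene's probes, and 21 with array medians set to 0, without a filter, with the matrix values and without each replicate. The count of helicases called lower was 0 under each of these. The median helicase ratio of 1.33 moved to 0.95, 0.89, 1.08 (array medians set to 0), 1.27 (both channels), 1.27 (no filter) and 1.37 (mean of probes), and stayed between 1.33 and 1.35 when a replicate was left out. Over all genes, 6731 were higher and 5340 lower with the processed signals, 3980 and 5696 after loess, 5434 and 6123 with array medians set to 0, and 2355 and 2081 with the backgrounds as given; these moved the median of all genes from 0.25 to -0.08, 0.00 and 0.03. Of the 38 helicases, 31 had the same call under every alternative in which they were tested, 16 of them higher. The causes of the lost calls of Dhx33, Dhx37, Ddx10, Ddx31 and Ddx28 were not tested. Signal over background limits Dhx33, Dhx37 and Ddx4.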
